A study of Homo sapiens with 6 samples.

Results

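The LINC complex and nuclear lamina genes described here are 10 genes, SUN1, SUN2, SYNE1, SYNE2, LMNA, LMNB1, LMNB2, EMD, TMPO and LEMD3, of 60607 genes in the deposited tables, with 212 of the 234326 transcripts. They were picked by gene symbol, and they were proposed with the knockdown and control estimated counts of this experiment already known. Their differences between the groups are therefore given as a description, with standard errors and no p-values. PLC/PRF/5 is an established human hepatocellular carcinoma cell line. In the 3 knockdown libraries (siSlu7) the cells had been transfected with siRNAs against SLU7, and in the 3 control libraries (siGL2) with siGL2, an irrelevant siRNA. RNA was taken after 48 h, and all libraries came from this 1 line, with no other treatment or genetic change named. SLU7 is a splicing factor of the second catalytic step, in which exons are joined, and the series asks which transcripts change when less of it is made.

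The nuclear envelope is lined on its inner face by the lamina, a meshwork of A-type lamins (from LMNA) and B-type lamins (from LMNB1 and LMNB2). SUN-domain proteins span the inner nuclear membrane. In the space between both membranes they hold the KASH domains of nesprins (from SYNE1 and SYNE2), which reach actin and microtubule motors. This bridge is the LINC complex, the linker of nucleoskeleton and cytoskeleton. Emerin (EMD), LAP2 (TMPO) and MAN1 (LEMD3) are LEM-domain proteins that tie the lamina to chromatin through the factor BANF1. Liver cells carry A-type as well as B-type lamins.

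The libraries held between 7736584 and 8693977 estimated counts in the controls and between 5191452 and 6315740 in the knockdowns. Mitochondrial ribosomal RNA took 16.8% to 24.1% of them in the controls, against 29.9% to 35.3% in the knockdowns, and 7SL RNA 14.8% to 22.0% and 7.69% to 10.1%. The SLU7 transcript itself was at 20.9, 17.1 and 18.4 counts per 1000000 of the TMM-scaled library size (CPM) in controls 1 to 3 and at 9.38, 8.30 and 10.5 CPM in knockdowns 1 to 3, a log2 fold change of -1.002 ± 0.18 (SE, n = 3 and 3; adjusted p = 0.0139, edgeR's quasi-likelihood test). The deposited TPM also divide by transcript length, and they were used without TMM scaling. In them the median gene was higher in the knockdowns by 0.35 on the log2(TPM + 1) scale. With TMM and offsets for transcript length the median log2 fold change was -0.02. In TPM, SLU7 was at 4.70 ± 1.25 in the controls and 4.38 ± 0.28 in the knockdowns (SD, n = 3 each). SLU7 was no longer called on that scale, with offsets for transcript length (-0.64 ± 0.23 SE), or without knockdown 1 or 2. Control 1 and knockdown 3 stood apart from the other libraries: SERPINA1, a hepatocyte secretory gene, was at 13735 and 10351 CPM in them and at 4062 to 4995 CPM in the other 4. All 8 hepatocyte and liver epithelial markers were detected, with ALB at only 21.0 to 25.8 CPM. Leukocyte markers summed to 18.0 to 27.8 CPM in controls and 18.8 to 22.5 CPM in knockdowns, nearly all of it CD68, with CD3E at 0 in 5 libraries and PTPRC at 0.377 to 0.511 CPM in controls and 1.495 to 2.03 CPM in knockdowns. Fibroblast markers summed to at most 2.95 CPM and endothelial markers to at most 4.86 CPM in any library. The part of PTPRC and of the abundant RNAs in the results was not tested, except that 4 of the 10 genes were called with and without mitochondrial genes and structural RNA.

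SUN1 is shown first by sequence, because a transcript that joins 2 distant SUN1 exons was listed at 0 in every knockdown. SUN1 lies at chr7:816615-896435 (plus strand, GRCh38, GENCODE 29). Its transcript SUN1-205 joins the exon that ends at 843520 directly to the exon that starts at 849923, leaving out a 198-base exon (848418 to 848615) and an 84-base exon (849520 to 849603), together 282 bases or 94 codons. SUN1-206 and SUN1-213 hold the 84-base exon and join it to the same downstream exon. SUN1-203 leaves out the same pair and also the 111-base exon after it. In the 48-base stretches below, read from the GENCODE 29 transcripts, lower case marks the 24 bases before the join and capitals the 24 bases after it.
SUN1-205 junction: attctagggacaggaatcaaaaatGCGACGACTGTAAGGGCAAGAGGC
SUN1-206 and SUN1-213 junction: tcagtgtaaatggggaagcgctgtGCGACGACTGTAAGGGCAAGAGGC
SUN1-203 junction: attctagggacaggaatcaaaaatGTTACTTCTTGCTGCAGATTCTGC
The capitals of the SUN1-205 stretch are those of SUN1-206 and SUN1-213, and its lower-case bases are those of SUN1-203. The skipped exons themselves follow, all in lower case.
First skipped exon: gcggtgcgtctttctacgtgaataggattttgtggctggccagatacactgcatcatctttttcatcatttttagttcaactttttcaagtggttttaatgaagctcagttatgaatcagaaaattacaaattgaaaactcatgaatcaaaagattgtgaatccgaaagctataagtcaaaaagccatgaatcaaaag
Second skipped exon: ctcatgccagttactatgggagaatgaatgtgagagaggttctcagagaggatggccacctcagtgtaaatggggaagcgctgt

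**Figure D1:**
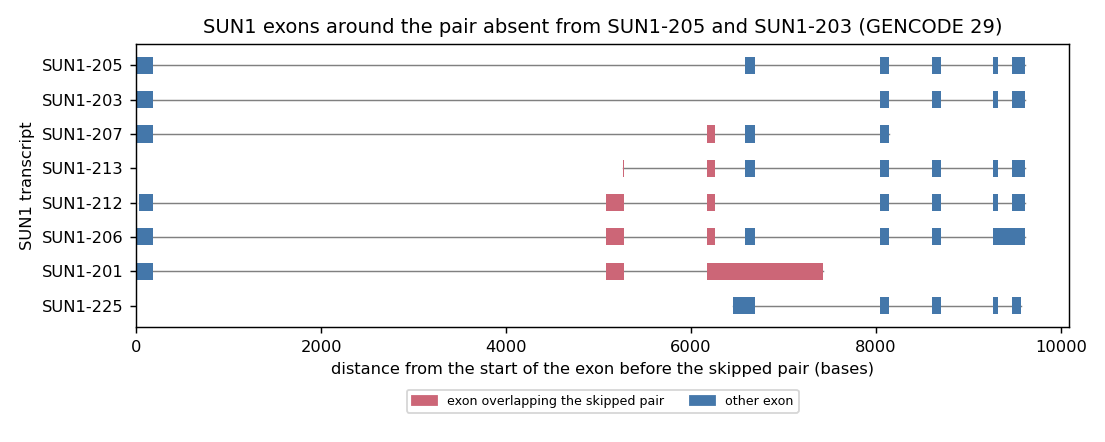
Exons of 8 SUN1 transcripts by distance in bases from the start of the exon before the skipped pair, with exons overlapping the pair in red and other exons in blue. SUN1-205 and SUN1-203 run from the first exon past both red exons, SUN1-212 and SUN1-206 hold both, and SUN1-213 starts at the end of the first.

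SUN1-205, a protein-coding transcript of 4062 bases with an open reading frame of 822 codons, had 201, 309 and 373 estimated counts in controls 1 to 3 and was listed at 0 in all 3 knockdowns. Its mean share of SUN1 counts was 16.8% in the controls. SUN1-203, with 785 codons, had 39.5, 32.8 and 45.3 estimated counts in the controls, against 0, 10.3 and 5.81 in the knockdowns. Both were higher in every control than in any knockdown. These are estimates: the quantifier divides reads among transcripts that share most exons, so a 0 can mean that the reads were given to another transcript, and counts of junction reads were not used here.

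The SUN1 transcripts were then summed by what they do at the pair of exons, a grouping chosen after the values were seen and given with no test. The 6 transcripts that skip both exons summed to 244, 357 and 444 estimated counts in the controls, against 0, 10.3 and 5.81 in the knockdowns. That was 15.8%, 19.1% and 24.1% of SUN1 in the controls, against 0%, 1.54% and 0.927% in the knockdowns. The 5 transcripts that hold the second exon summed to 624, 900 and 896 in the controls, against 444, 342 and 320 in the knockdowns, or 40.4% to 48.6% and 51.0% to 61.9% of the gene. The other 24 transcripts, most of which do not reach the pair and 2 of which (SUN1-228 and SUN1-234) hold only the first exon, made up 27.3% to 43.8% of SUN1 in the controls, against 38.1% to 48.1% in the knockdowns. The share that skipped both exons thus did not overlap between the groups, nor did the share that held the second exon over all types. The share of the other transcripts overlapped. Of the 5 that hold the second exon, 3 are typed as protein-coding and the rest as retained-intron. Those 3 summed to 264, 442 and 540 estimated counts in the controls, against 187, 195 and 97.1 in the knockdowns. As a share of SUN1 these sums overlapped between the groups. A switch from skipping to holding the second exon is therefore not read from these shares.

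Other SUN1 transcripts differed less. SUN1-213, a coding transcript whose annotated reading frame is incomplete, had 216, 250 and 266 estimated counts in the controls, against 119, 135 and 42.8 in the knockdowns. Its share of the gene was 13.9% and 14.8%. SUN1-225, a 580-base retained-intron transcript, had 269, 261 and 188 in the controls, against 24.6, 34.6 and 74.2 in the knockdowns. Its share was 13.6% and 6.64% but overlapped between the groups, at 10.2% in control 3 and 11.8% in knockdown 3. SUN1-206, which keeps a 142-base intron (852668 to 852809), had 202, 297 and 178 in the controls, against 147, 49.4 and 90.0 in the knockdowns, at 12.9% and 14.2% of the gene. That intron is shown because its first and last bases, the GT and AG at which splicing cuts, are in capitals.
SUN1-206 retained intron: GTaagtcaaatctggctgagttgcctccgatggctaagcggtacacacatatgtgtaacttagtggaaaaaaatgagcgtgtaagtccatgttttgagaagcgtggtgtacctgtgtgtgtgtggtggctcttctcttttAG
SUN1-201, another retained-intron transcript, had 158, 162 and 178 estimated counts in the controls, against 110, 97.7 and 133 in the knockdowns. Scaled to library size it overlapped, at 21.1 to 24.4 and 16.8 to 24.6 CPM, and its share was 9.46% and 16.9%. SUN1-212, with 710 codons, ranged from 47.5 to 232 in the controls and from 54.4 to 68.2 in the knockdowns, which overlapped.

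**Figure D2:**
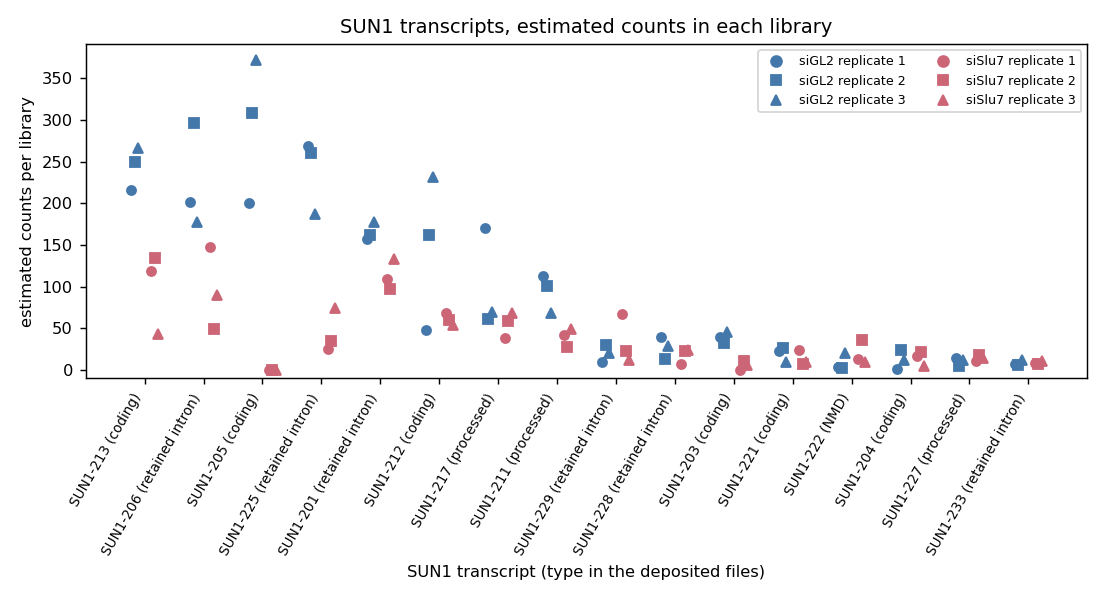
Estimated counts of the 16 tested SUN1 transcripts (x axis, with their deposited type) in each library, controls in blue and knockdowns in red, with 1 symbol per replicate. SUN1-205 lies at 201 to 373 in the controls, against 0 in the knockdowns.

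Of the 16 tested SUN1 transcripts, 11 had a negative log2 fold change and 6 did not overlap between the groups. In a test of transcript make-up within each gene (edgeR's diffSpliceDGE with the Simes method), 257 of 8869 genes were called, 2.90%. SUN1 and SYNE2 were among them, and 7 other members were not. EMD, with 1 tested transcript, could not be tested. SUN1 was also called in 12 of 12 alternative settings and SYNE2 in 7 of 12. On simulated data this test made more false calls than its threshold allows, and the comparison is the one by which the genes were proposed, so the calls describe and do not test. In the fit of single transcripts, 0 of 43128 transcripts were called by edgeR's quasi-likelihood test, while 6956 (16.1%) had an unadjusted p under 0.05. Of the members' 64 tested transcripts, 18 had such a p and 24 did not overlap between the groups, beside 28.1% of all transcripts tested. On simulated data that fit recovered none of the 4-fold changes, so the count of 0 says little about changes of that size.

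At the level of whole genes, both SUN-domain genes were lower in the knockdowns. In such bulk libraries less RNA per cell and fewer cells that carry it cannot be told apart. SUN1 was at 194, 250 and 236 CPM in controls 1 to 3 and 110, 123 and 117 CPM in knockdowns 1 to 3. The groups did not overlap, and the log2 fold change was -0.96 ± 0.16 (SE, n = 3 and 3). SUN2 (chr22:38734725-38794143, minus strand), the partner that is found with SUN1 in most cells, was at 34.9, 67.1 and 43.1 CPM in the controls, against 16.2, 19.9 and 14.8 CPM in the knockdowns. On the CPM scale it had the largest difference of the 10 genes, with a log2 fold change of -1.51 ± 0.26, and the lowest control was above the highest knockdown. Its transcripts were not resolved: SUN2-201 (738 codons) ranged from 38.1 to 251 estimated counts in the controls and from 25.0 to 48.0 in the knockdowns, and SUN2-202 and SUN2-203 (717 codons each) were at 0 in at least 1 control.

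The nesprin genes stood lower in the knockdowns on the CPM scale. The sign of both reversed in TPM, and that of SYNE2 also with offsets for transcript length. SYNE1 (chr6:152121684-152637801, minus strand), which encodes nesprin-1, was at 83.4, 52.4 and 49.97 CPM in the controls, against 33.2, 36.7 and 47.6 CPM in the knockdowns. Its log2 fold change was -0.66 ± 0.23 in CPM, 0.13 in log2(TPM + 1) and -0.38 ± 0.35 with offsets for the mean effective transcript length. Knockdown 3 came close to controls 2 and 3 without reaching them. SYNE2 (chr14:63852983-64226433, plus strand), which encodes nesprin-2, was at 159, 92.4 and 117 CPM in the controls, against 92.1, 99.7 and 97.0 CPM in the knockdowns. The groups overlapped, with a log2 fold change of -0.35 ± 0.20 in CPM, 0.69 in log2(TPM + 1) and 0.19 with offsets for the mean effective transcript length.

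The transcript make-up of SYNE2 also differed between the groups. SYNE2-202, the coding transcript of 6885 codons, had 829, 489 and 591 estimated counts in the controls, against 264, 235 and 236 in the knockdowns, and its mean share of the gene was 66.6% in the controls, against 44.3% in the knockdowns. SYNE2-231, a transcript typed as a target of nonsense-mediated decay, which degrades mRNAs with early stop codons, overlapped between the groups at 242, 80.6 and 193 against 182, 158 and 120. Its share was 18.0% and 27.7%. Summed by type, protein-coding transcripts made up 69.3%, 77.6% and 70.9% of SYNE2 in the controls, against 52.7%, 58.7% and 54.3% in the knockdowns. The decay type went from 18.0% ± 4.03 to 27.6% ± 3.92 and the retained-intron type from 8.81% ± 1.40 to 15.8% ± 5.62 (SD, n = 3 each). None of these 3 shares overlapped between the groups. Among tested genes with such counts, the coding share was lower in every knockdown in 18.6% and higher in 3.88%. The retained-intron share was higher in every knockdown in 21.3% and lower in 2.97%. No such figure was computed for the decay type, so nothing particular to SYNE2 is read from these shares. SYNE1 was counted mostly on retained-intron types in both groups, at 84.9% ± 5.20 and 77.3% ± 11.5, which overlapped. Its transcripts SYNE1-208, SYNE1-220 and SYNE1-228 had between 62.5 and 236 estimated counts in the controls and between 22.8 and 87.3 in the knockdowns.

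**Figure D3:**
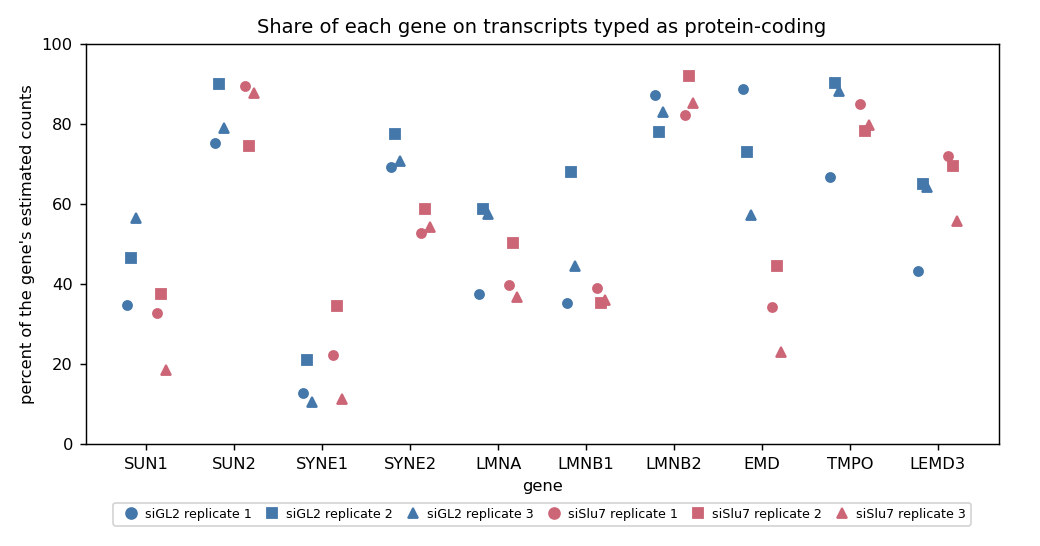
Share of each gene's estimated counts on transcripts typed as protein-coding (y axis, percent) in each library, controls in blue and knockdowns in red. SYNE2 and EMD, 2 of the 10, do not overlap and are lower in every knockdown, as are 18.6% of 10202 tested genes with coding and other types (3.88% are higher in every knockdown), with SYNE2 at 69.3% to 77.6% in the controls, against 52.7% to 58.7% in the knockdowns.

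The lamin genes did not all differ in the same direction. LMNA (chr1:156082573-156140089, plus strand), which makes lamins A and C, was at 104, 148 and 118 CPM in the controls, against 56.1, 54.0 and 55.1 CPM in the knockdowns. The knockdowns lay within about 2 CPM of one another and far below every control, with a log2 fold change of -1.17 ± 0.17. LMNB2 (chr19:2427638-2456996, minus strand), which makes lamin B2, was at 125, 141 and 138 CPM against 88.3, 87.7 and 77.9 CPM, a log2 fold change of -0.67 ± 0.14 with no overlap. LMNB1 (chr5:126776623-126837020, plus strand), which makes lamin B1, was at 56.2, 37.2 and 33.5 CPM in the controls, against 56.8, 60.1 and 70.8 CPM in the knockdowns. Its log2 fold change was 0.56 ± 0.21, and control 1 lay just under knockdown 1.

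Among the lamin transcripts, LMNA-205, whose 664 codons are the length of prelamin A, had 95.2, 106 and 160 estimated counts in the controls, against 25.9, 14.5 and 31.2 in the knockdowns, a log2 fold change of -2.02 ± 0.41. LMNA-219, a short coding model of 182 codons, had 175, 245 and 195 against 56.0, 49.5 and 16.1. The largest share of LMNA, 38.8% in the controls, against 38.4% in the knockdowns, was on the retained-intron transcript LMNA-227, at 460, 334 and 318 against 163, 88.5 and 114. All 3 were lower in every knockdown, while LMNA-238, at 27.3 to 209 and 20.1 to 63.8, overlapped. LMNB2-201, the 620-codon transcript that held 82.7% and 86.3% of LMNB2, had 869, 819 and 897 estimated counts in the controls, against 473, 438 and 356 in the knockdowns. LMNB1-201, with 586 codons, overlapped at 63.9 to 96.8 and 57.4 to 100.2. So did LMNB1-208, a transcript typed as processed, at 89.1 to 195 and 134 to 166.

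The LEM-domain genes showed smaller differences. TMPO (chr12:98515512-98550379, plus strand) was at 135, 105 and 124 CPM in the controls, against 176, 158 and 142 CPM in the knockdowns, a log2 fold change of 0.39 ± 0.17 with no overlap. TMPO-202, whose 694 codons are the length of the nucleoplasmic form LAP2 alpha, had 151, 158 and 191 estimated counts in the controls, against 291, 230 and 190 in the knockdowns. Its CPM did not overlap between the groups, and its log2 fold change was 0.81 ± 0.22. TMPO-212, whose 454 codons are the length of the membrane form LAP2 beta, overlapped at 114 to 257 against 110 to 264. LEMD3 (chr12:65169571-65248327, plus strand), which encodes MAN1, an inhibitor of SMAD signalling, was at 23.5, 20.9 and 25.8 CPM in the controls, against 27.2, 30.4 and 27.8 CPM in the knockdowns, a log2 fold change of 0.28 ± 0.16. EMD (chrX:154379197-154381523, plus strand) was the lowest of the 10, at 1.76, 4.96 and 3.96 CPM against 3.999, 2.77 and 2.24 CPM, or 12 to 37 estimated counts per library. At that depth its groups overlapped and no direction was detectable: the log2 fold change was -0.23 ± 0.42 in CPM and 0.50 in log2(TPM + 1).

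Retained-intron types took a larger share of SYNE2 and of the 3 LEM-domain genes in every knockdown than in any control, 4 of the 10 genes. The same held for 1587 of 7438 tested genes with such counts, 21.3%, while 2.97% had a smaller share in every knockdown, and nothing is read from the count of 4. In EMD the share was 17.5% ± 8.45 in the controls, against 66.0% ± 10.8 in the knockdowns, on 1.56 to 17.1 estimated counts per library. In LEMD3 it was 1.73% ± 0.73 and 6.67% ± 2.01, and in TMPO 0.426% ± 0.32 and 1.91% ± 0.25 (SD, n = 3 each). For SUN1, SUN2, SYNE1, LMNA, LMNB1 and LMNB2 the same share overlapped between the groups. Many transcripts of this type are short models, and unspliced RNA can count toward them, which was not measured here.

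**Figure D4:**
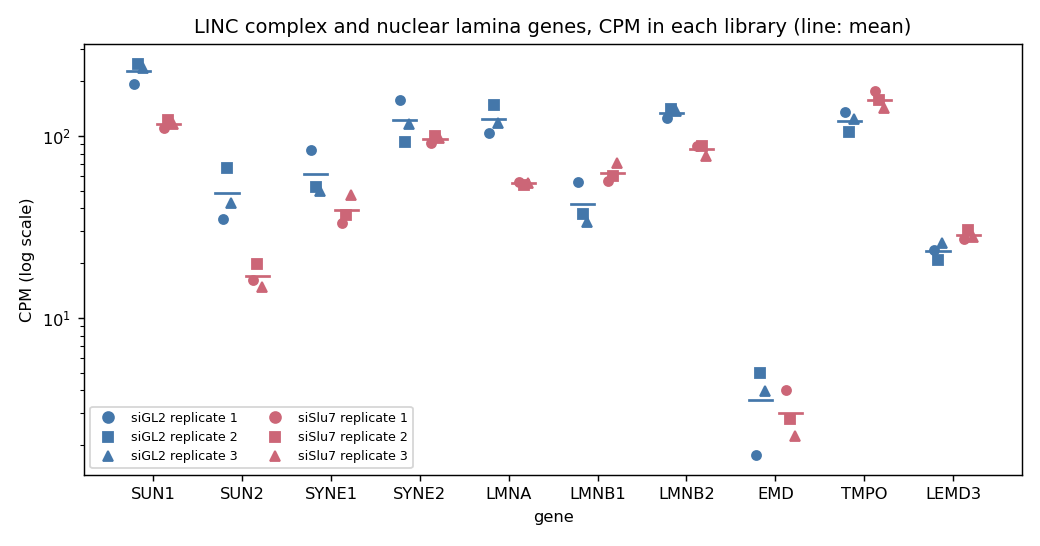
CPM of the 10 genes (x axis) in each library on a log scale, controls in blue, knockdowns in red, lines at the group means. SUN1, SUN2, SYNE1, LMNA and LMNB2 lie lower in every knockdown, LMNB1, TMPO and LEMD3 higher, and SYNE2 and EMD overlap.

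All 10 genes passed the filter on low counts. Of them, 4 were among the genes called lower (SUN1, SUN2, LMNA and LMNB2) and 0 among those called higher by edgeR's quasi-likelihood test, which called 2371 of 17109 genes, 13.9%, of which 7.93% of all tested were lower and 5.93% higher. The groups did not overlap in 8 of the 10, beside 36.6% of all genes tested. The median log2 fold change was -0.51 over the 10 genes and -0.01 over all genes tested. Since this comparison is the one the genes were proposed from, nothing is read from these counts.

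The calls depended on which libraries entered the fit and on offsets for GC content and length, which change both at once. Without control 1 and knockdown 3, 7 of the 10 were called, with SYNE1 lower (-0.55) and LMNB1 (0.73) and TMPO (0.55) higher, while without knockdown 2 none was called. LMNB2 (64.8% GC) had a log2 fold change of -0.67 without offsets and -0.07 with offsets for GC content and length. With offsets for the mean effective transcript length in each library it was -0.82, and it was called only in the first of these 3 fits. The length in the GC content offsets is instead a gene's average over the libraries, so the part of GC content cannot be read from the difference between these fits. LMNA (62.1% GC) went from -1.17 to -0.70 and SUN2 (61.5% GC) from -1.51 to -1.05 with GC content and length offsets, and both remained called. SUN1 (52.1% GC) was -0.96 and -0.95. TMPO (43.9% GC) and LEMD3 (42.6% GC) went from 0.39 to 0.22 and from 0.28 to 0.11. GC content alone was not tested.

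**Figure D5:**
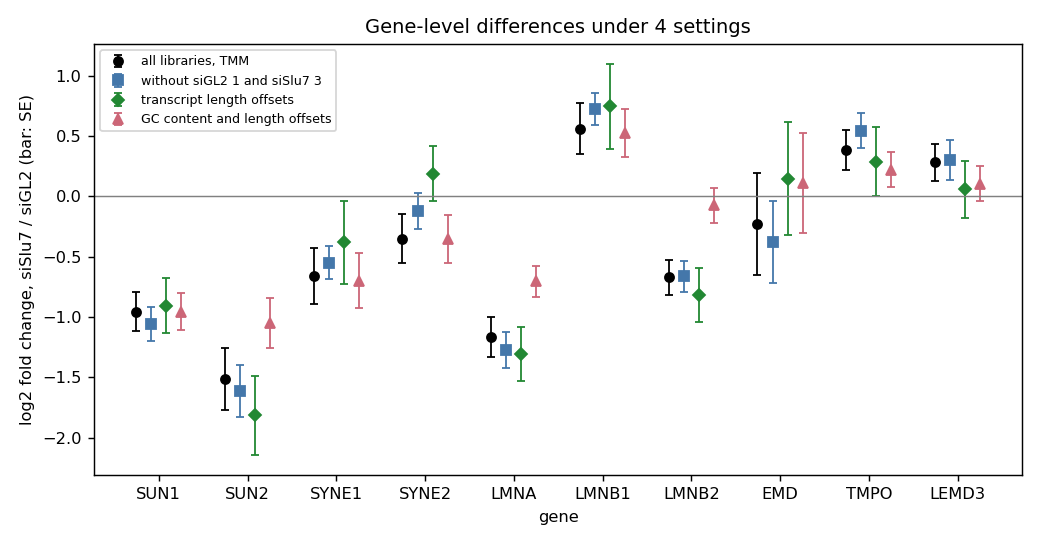
Log2 fold change of each gene (y axis, knockdown over control, bars for the SE) with all libraries, without control 1 and knockdown 3, and with offsets. The offsets were for the mean effective transcript length in each library, or for GC content plus the length averaged over libraries. SUN1, SUN2, SYNE1 and LMNA stay below 0 in all 4, LMNB1, TMPO and LEMD3 stay above 0, and LMNB2 reaches -0.07 with the offsets for GC content plus length.

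Levels can be compared between genes only per length, in TPM. The TPM of a gene is summed over all its listed transcripts, so counts on short ones weigh more. Examples are SUN1-225 (580 bases; 269, 261 and 188 estimated counts in the controls) and LMNB1-204 (557 bases; 94.1, 0 and 28.3). How far such short models set the order below was not tested. In the controls SUN1 was highest at 94.8 ± 9.74 TPM, above LMNA at 53.4 ± 3.56 and TMPO at 53.0 ± 26.4, which overlapped (SD, n = 3 each). LMNB2 (25.1 ± 3.75) came next and overlapped with LMNB1 (14.8 ± 8.94), which overlapped with SUN2 (14.0 ± 2.06). LEMD3 (7.44 ± 2.39) and SYNE2 (7.30 ± 2.50) overlapped, SYNE2 overlapped with SYNE1 (4.79 ± 1.90), and EMD was lowest at 1.59 ± 0.73. In the knockdowns TMPO was highest at 92.9 ± 1.86 TPM, above SUN1 at 74.9 ± 16.9. LMNB1 (35.5 ± 9.66) and LMNA (32.2 ± 3.11) overlapped there, whereas LMNA lay above LMNB1 in the controls. LMNB2 (21.2 ± 3.36), SYNE2 (12.0 ± 1.17), LEMD3 (11.2 ± 1.77), SUN2 (5.95 ± 2.55), SYNE1 (5.46 ± 2.47) and EMD (2.61 ± 0.81) followed. SYNE2 and LEMD3 overlapped, as did SUN2 with SYNE1 and SYNE1 with EMD.

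Genes with roles near these 10 were taken from 6 lists of 64 genes, 57 of which passed the filter. Of those, 3 rose and 5 fell, beside 13.9% of all genes called, and their median log2 fold change was 0.04. Among the other SUN and KASH genes, 1 of 4 tested was called: SPAG4, a SUN-domain gene also known as SUN4, fell from 24.3 ± 4.44 to 10.3 ± 2.52 CPM (SD, n = 3 each; log2 fold change -1.25 ± 0.23 SE, adjusted p = 0.0147, edgeR). Of 11 other inner nuclear membrane and LEM-domain genes, TOR1AIP1, which encodes the lamin-binding LAP1, rose from 36.8 ± 8.34 to 63.9 ± 10.7 CPM (0.79 ± 0.21, adjusted p = 0.038, edgeR), and none fell.

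PLEC had the largest change of the called related genes on the CPM scale. Of 12 tested torsin and cytoskeletal genes 2 fell. PLEC, which encodes plectin, a linker protein of intermediate filaments, was at 322, 262 and 273 CPM in the controls, against 80.1, 83.7 and 105 CPM in the knockdowns (-1.67 ± 0.18, adjusted p = 0.00769, edgeR). DYNC1H1, the heavy chain of cytoplasmic dynein, fell from 714 ± 3.36 to 374 ± 5.79 CPM (-0.93 ± 0.16, adjusted p = 0.0109, edgeR), yet in TPM it was higher in the knockdowns, 35.4 ± 6.25 against 48.8 ± 1.29. In both genes every knockdown lay below every control on the CPM scale.

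Of 6 lamin processing enzymes, 1 rose and 2 fell. FNTA, the alpha subunit shared by the enzymes that farnesylate and geranylgeranylate proteins, rose from 34.5 ± 3.63 to 65.2 ± 9.38 CPM (0.92 ± 0.16, adjusted p = 0.0134, edgeR). RCE1, the protease that trims prenylated proteins, fell from 14.3 ± 4.17 to 7.14 ± 0.48 CPM (-0.998 ± 0.26, adjusted p = 0.0355, edgeR). NARF, a binding partner of prelamin A, fell from 23.2 ± 2.55 to 14.5 ± 1.37 CPM (-0.68 ± 0.17, adjusted p = 0.0334, edgeR), while its TPM was 9.60 ± 3.43 and 10.6 ± 1.81. Of 16 genes of envelope disassembly and reassembly, PPP2R2A, a regulatory subunit of protein phosphatase 2A, rose from 14.4 ± 0.52 to 26.0 ± 1.89 CPM (0.85 ± 0.15, adjusted p = 0.0138, edgeR). None of 8 lamina and chromatin partners was called by edgeR or by DESeq2, and 1 had an unadjusted p under 0.05. The smallest p there were those of CBX5, which encodes HP1 alpha (-0.40 ± 0.16 in CPM and 0.36 in log2(TPM + 1), adjusted p = 0.121, edgeR), and CBX1, which encodes HP1 beta (0.65 ± 0.37, adjusted p = 0.259, edgeR). With offsets for GC content and length 9 related genes were called, 5 higher and 4 lower, no longer NARF, RCE1 or TOR1AIP1 but with CBX5 among those gained. Without knockdown 2 none of the 57 was called.

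The 5 protein-coding genes whose log2 CPM over the 6 libraries followed that of SUN1 most closely, of 12550 compared, were FRAS1, LMBR1, MICAL1, ITGA3 and ARFGEF3. Their Pearson correlations were 0.9997, 0.9979, 0.9978, 0.9978 and 0.997. The 6 libraries fall into 2 groups with SUN1 lower in one, so such values describe that difference together with the order within each group. FRAS1, an extracellular matrix protein, was at 295, 386 and 367 CPM in the controls, against 156, 173 and 168 CPM in the knockdowns. ITGA3, the integrin alpha 3 subunit, was at 14.8, 19.4 and 17.1 CPM against 8.61, 9.59 and 9.34 CPM. Like SUN1, both were lowest in control 1 among the controls and highest in knockdown 2 among the knockdowns, which their choice by correlation favoured.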

How the data were processed

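RNA sequencing libraries of PLC/PRF/5 cells, 3 with siSlu7 and 3 with siGL2, were prepared with a ScriptSeq mRNA-Seq kit, and the labels give polyA RNA, per the labels' protocols. FastQC 0.11.8, Trimmomatic 0.38, kallisto 0.46.1, sleuth 0.30.0 and GRCh38 are named without roles in the submitters' processing notes. The authors deposited estimated counts per transcript, neither normalized nor whole, and TPM computed from them and the effective length, per the file headers. The annotation release was not given in the sources used here, and neither was the strand setting, so reads of overlapping or antisense genes cannot be told apart. Reads split between similar transcripts carry an error that was not modelled. The labels do not say whether the 3 libraries per group came from separate cultures, so p-values measure the spread between these libraries, which may be technical.

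Of the 234485 records, 159 on chromosome Y that repeat pseudoautosomal genes were added to X. Estimated counts were summed per gene and rounded. Genes and transcripts were tested with edgeR 4.0.16 (R 4.3.3; TMM, filterByExpr with a count of 10 and a total of 15, quasi-likelihood test, Benjamini-Hochberg over all features at 0.05), and transcript make-up with diffSpliceDGE. The fits were tested on simulated data. Alternatives were RLE size factors, other filters, a replicate block, leaving libraries out, DESeq2 1.42.0, limma 3.58.1 on log2(TPM + 1) and log2(TPM + 0.1), length offsets, glmTreat at 1.5-fold and a gene-level usage test. Offsets from a smooth of GC content and length, the latter averaged over libraries (mgcv 1.9.3), and leaving out 273 mitochondrial and structural RNA genes were added after seeing the data. Gene coordinates and exons came from GENCODE 29, which held 185 of the 212 transcripts.

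The 10 genes, the related lists and the markers were chosen with earlier results of these data known. Named were SLU7, the 10 genes, their tested transcripts with at least 10% of the gene (for SUN1 every tested one), up to 4 called genes per list or the 2 with the smallest p, and the 5 genes most like SUN1.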

Additional observations from a re-analysis of the deposited data

How the results depend on the processing

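The fit of all 6 libraries called 2371 genes, 4 of the 10 LINC and lamina genes and 8 of the 57 related genes. With the replicate block these counts were 0, 0 and 0. The block gave 87 usage calls in place of 257. The numbers do not pair the libraries: deviations of same-numbered libraries correlated at -0.41, 0.11 and -0.37. Other pairs ranged from -0.29 (control 2 with knockdown 3) to 0.44 (control 1 with knockdown 3). A batch shared across the groups was not tested. Without control 1 and knockdown 3 the counts were 5248, 7 and 17, with 865 usage calls. Length offsets gave 963, 2 and 1, and glmTreat 36, 0 and 1. On log2(TPM + 1) 2 of the 10 and 15 related genes were called, and on log2(TPM + 0.1) 2 and 14. Higher calls made up 42.8% in CPM, 45.9% with length offsets, 95.2% on log2(TPM + 1) (2985 up, 150 down) and 95.4% on log2(TPM + 0.1). Leaving out 1 library at a time gave 0 to 4457 genes, 0 to 5 of the 10, 0 to 15 related genes and 156 to 808 usage calls, lowest without knockdown 2 and highest without control 1. The gene-level F test gave 442 usage calls. With no filter, 94 transcripts were called, 1 of them of the 10 genes.

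LMNB2 lost its call under both kinds of offsets, on both TPM scales and without any 1 library other than control 1. SUN1 lost it without knockdown 1 or 2, under length offsets and on both TPM scales, and SUN2 without knockdown 1 or 2. LMNA lost it without knockdown 2 and on both TPM scales. LMNB1 was called on both TPM scales and without control 1. SLU7 itself lost its call with the block, under glmTreat, without knockdown 1 or 2, under length offsets (-0.64) and on both TPM scales (-0.06 and -0.07).

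The following signs were reversed. On log2(TPM + 1) and log2(TPM + 0.1), SYNE1 was 0.13 and 0.15, SYNE2 0.69 and 0.76, EMD 0.50 and 0.76, CBX5 0.36 and 0.39, NARF 0.16 and 0.18, and DYNC1H1 0.47 and 0.48. With length offsets SYNE2 was 0.19 and EMD 0.15, and with GC content and length offsets EMD was 0.11. Leaving out 1 library at a time gave -0.553 to 0.0716 for EMD, -0.0556 to 1.46 for SUN1-204, -0.743 to 0.0569 for SUN1-217, -0.870 to 0.0244 for SUN1-221, -0.556 to 0.187 for SUN1-228, -1.03 to 0.821 for SUN2-202, -1.45 to 0.0395 for SYNE1-228, -0.178 to 0.442 for SYNE2-231, -0.0456 to 2.28 for LMNB1-204 and -0.283 to 0.336 for TMPO-212. SUN2-202 was 0.42 with the block, and without control 1 and knockdown 3 SUN2-202 was 0.51 and TMPO-212 -0.0039. The cause was not tested. RLE size factors, the stricter filter and DESeq2 changed no call or sign of the genes named. Depth limits EMD, at 12 to 37 counts, and single transcripts.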

Other observations

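Transcripts below 10% of their gene were outside the rule for naming, and 2 were picked out after their values were seen because they were near 0 in every control. SYNE2-216, a coding transcript of 21822 bases, had 1.18, 0.0194 and 0.104 estimated counts in controls 1 to 3 and 26.4, 27.6 and 9.01 in knockdowns 1 to 3, at most 5.11% of SYNE2. LMNB1-205, a processed transcript of 730 bases, was listed at 0 in the 3 controls and at 26.4, 19.5 and 8.79 in the knockdowns, at most 7.16% of LMNB1. As for SUN1-205, a 0 can reflect how reads were divided among transcripts.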
